A study of Mus musculus with 2 samples.

Results

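Interleukin-10 (Il10) and 7 genes of its receptor pathway were read in macrophages of the mouse small intestine. The 8 genes were given as a list, and all 8 were found among the 27998 genes of both count tables. They are the ligand Il10, the receptor chains Il10ra and Il10rb, the kinases Jak1 and Tyk2, the transcription factor Stat3, and the pathway targets Socs3 and Bcl3. The list was not built from measured values, but it was chosen with earlier results of these data known. One library came from male wild-type C57BL/6J mice bought from the breeder Janvier, and the other from CCR2-/- mice (JAX strain #:004999, bred in-house), which lack a chemokine receptor that monocytes need to leave the bone marrow. The sex of the knockout mice and the age of both groups were not given in the sources used here, and no treatment is listed for either group. Each library pooled cells from 3 to 4 intestines that had been stripped of mucus and epithelium and digested with enzyme. The cells had been sorted as live CD45+ CD11b+ MHCII+ CD64+ cells, with CD3, TCRb, B220, SiglecF, Ly6C and Ly6G used to gate other leukocytes out.

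IL-10 is a cytokine that restrains inflammatory gene expression in macrophages. It binds a receptor built from the ligand-specific chain IL-10Rα and the shared chain IL-10Rβ, which carry the kinases JAK1 and TYK2. These kinases phosphorylate STAT3, which enters the nucleus and raises genes such as Socs3, a feedback inhibitor of cytokine receptors, and Bcl3, an IκB-family regulator of NF-κB. Intestinal macrophages are a known source of IL-10 and are known to need its receptor to stay tolerant of gut bacteria.

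After cells with under 200 genes or over 10% mitochondrial unique molecular identifiers (UMIs) were removed, 3016 wild-type and 2612 knockout cells remained. Levels are UMIs summed over the cells of a library per 1000000 (CPM), with 95% Poisson intervals that cover counting error only. With 1 library a genotype there was no test, so genotype cannot be told apart from breeder, preparation and sequencing. Wild-type barcodes carried 2 suffixes, read here as 2 lanes (2109 and 907 cells). What set the lanes apart is not given in the sources used here. Their spread is therefore no measure of spread between mice. Shares of cells with a UMI were taken after each cell was thinned to 1000 UMIs, because the median cell held 6129 UMIs in the wild type and 2439 in the knockout. Thinning left out 1 wild-type and 196 knockout cells.

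The libraries stood apart in several ways that bear on every comparison. Ccr2 itself was at 331 CPM in the wild type and 6.88 CPM in the knockout. All 8 macrophage markers were detected in both libraries and summed to 14277 and 10716 CPM, most of it from the complement genes C1qa, C1qb and C1qc. Single markers went both ways: C1qb was at 4207 and 1678 CPM, Cd68 at 292 and 145 CPM and Fcgr1, which encodes the sort marker CD64, at 203 and 101 CPM. Csf1r was at 895 and 1576 CPM and Mertk at 35.2 and 96.8 CPM. The 8 monocyte markers, of which Ccr2 is 1, summed to 579.9 and 147 CPM. Most of that sum was Ccr2 and Plac8 (236 and 113 CPM). The rest were low and went both ways, such as Fn1 at 4.88 and 18.9 CPM and Hp at 0.822 and 0 CPM. Fibroblast markers (5 of 5 detected) summed to 26.1 and 232 CPM, and endothelial markers (5 of 5) to 52 and 187 CPM. All 14 of 14 immediate-early genes were at least 2-fold higher in the knockout, beside 9.04% of all genes with a mean of at least 10 CPM. Such genes are switched on within minutes by stimulation and also by tissue digestion. The parts these differences play in the values below were not tested. Across the 7401 genes with a mean of at least 10 CPM, the median log2 ratio of knockout over wild type was 0.18 (pseudocount 1 CPM), so a gene at 0.18 moved with the bulk of genes.

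Short stretches around sequence elements of these genes are shown. Levels of some regulators linked to such elements are given further on (Zfp36, Stat3 and Crem). Those of others, the NF-κB subunits among them, are not. The first is from the Il10 3′ untranslated region (chr1:131024481-131024509, plus strand, GRCm38) and holds in capitals the heptamer TATTTAT, of the kind bound by the mRNA-destabilising protein tristetraprolin (Zfp36). The others are from the 250 bases before the RefSeq start (GRCm38.p6) of Socs3 (chr11:117969502-117969530), Jak1 (chr4:101265306-101265334) and Bcl3 (chr7:19822841-19822869), all on the minus strand, with the matched motif in capitals.
Il10 3′ site: taattttacagTATTTATtatttttaacc
Socs3 promoter site: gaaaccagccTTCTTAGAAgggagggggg
Jak1 promoter site: gagcagcttcTGACGTCAcgggggctggg
Bcl3 promoter site: cgcgggtccaGGAAACCCCtggggcggac

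The heptamer occurs 4 times in the 706-base Il10 3′ untranslated region, 3 times in that of Il10ra, 2 times in that of Socs3 and 0 times in those of the other 5 members. Of 2286 genes with a 3′ untranslated region within 20% of that length, 18.5% held the heptamer at least once and 0.7% held it at least 4 times. Promoters of 5 members were matched in RefSeq, and those of Il10, Il10ra and Il10rb were not analysed here. Each was searched on both strands for the STAT palindrome TTCNNNGAA, the cAMP response element TGACGTCA and the NF-κB-type motif GGGNNTTCC (GGAANNCCC on the other strand). The palindrome is in the Socs3 window, as in 7.02% of 32851 promoter windows of the same length. That window (chr11:117969367-117969616) lies wholly inside the Socs3 gene span given below, because the GENCODE gene starts further upstream than the RefSeq one. The cAMP response element is in the Jak1 window and in 1.55% of all windows. The NF-κB-type motif is in the Bcl3 window, read on its other strand, and in 4.98% of all windows. None of the 3 motifs is in the Stat3 or Tyk2 window. A match describes these letters and is no evidence of binding.

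Il10, the ligand (chr1:131019845-131024974), differed most of the members. Its level was 19.9 CPM (17.7 to 22.3) in wild-type lane 1, 17.8 CPM (14.7 to 21.5) in lane 2 and 78.9 CPM (72.5 to 85.6) in the knockout. The knockout was above both lanes, and the lanes overlapped. The 399 wild-type and 573 knockout UMIs gave a 4.09-fold difference, a log2 ratio of 1.98 on the scale of CPM plus 1 (interval without the pseudocount 1.84 to 2.22), against -0.15 between the lanes. Relative to the median of all genes the log2 ratio was 1.79. In thinned cells, 2.42% of wild-type cells (1.9 to 3.03, 73 of 3015) and 6.83% of knockout cells (5.86 to 7.91, 165 of 2416) held an Il10 UMI. Most positive cells held 1 UMI, and at full depth 8 wild-type and 17 knockout cells held 5 or more. Those cells carried 12.5% of the wild-type and 19.2% of the knockout Il10 UMIs, and without them the log2 ratio was 1.86. Among cells of 2000 to 4000 UMIs in both libraries, Il10 was at 31.2 CPM in the wild type and 71.6 CPM in the knockout, a log2 ratio of 1.17 (0.79 to 1.62).

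Both receptor chains were somewhat higher in the knockout. Il10ra, the chain that gives the receptor its specificity for IL-10 (chr9:45253837-45269149), stood at 109, 105 and 160.2 CPM in wild-type lane 1, lane 2 and the knockout. The 2 lanes overlapped and the knockout was above both, with a log2 ratio of 0.57 (0.47 to 0.68), or 0.39 above the median of all genes. A UMI of Il10ra was in 11.5% (10.4 to 12.7) of thinned wild-type and 15.1% (13.7 to 16.6) of thinned knockout cells. Il10rb, which also serves the receptors for IL-22 and type III interferons (chr16:91406164-91425834), stood at 134, 153 and 187 CPM. Its lanes differed by a log2 ratio of 0.20, and the knockout over wild type by 0.42 (0.33 to 0.51), or 0.23 above the median of all genes. Its share of thinned cells was 13.9% (12.6 to 15.1) in the wild type and 18% (16.5 to 19.6) in the knockout. Neither chain reached 2-fold. In cells of 2000 to 4000 UMIs the log2 ratios of Il10ra and Il10rb were 0.22 and 0.17, beside a median of 0.05 for all genes.

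The 2 receptor-associated kinases differed less. Jak1, which docks on IL-10Rα (chr4:101152367-101265282), was at 136 CPM in wild-type lane 1, 96.6 CPM in lane 2 and 159 CPM in the knockout. Its lane-to-lane log2 ratio of -0.49 was larger in size than its log2 ratio of knockout over wild type, 0.35 (0.25 to 0.46). Relative to the median of all genes, the Jak1 ratio of knockout over wild type was 0.17. Tyk2, which docks on IL-10Rβ (chr9:21104068-21131243), was at 18.9, 15.7 and 18.7 CPM. Its log2 ratio was 0.05 (-0.24 to 0.34) and -0.13 relative to the median of all genes, so its direction turned with the scaling and the knockout lay between the 2 lanes. A Tyk2 UMI was in 1.72% of thinned wild-type and 1.99% of thinned knockout cells.

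Stat3, the transcription factor of the pathway (chr11:100885098-100939540), was at 76.5, 74.5 and 127 CPM in wild-type lane 1, lane 2 and the knockout. The lanes lay within each other's intervals, and the knockout lay above both. The log2 ratio was 0.74 (0.62 to 0.86), short of 2-fold, and the share of thinned cells was 6.97% (6.08 to 7.93) in the wild type and 12.7% (11.4 to 14.1) in the knockout. In cells of 2000 to 4000 UMIs the log2 ratio of Stat3 was 0.23.

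Of the targets, Socs3 was past 2-fold in the knockout and Bcl3 lay near the wild-type level. Socs3 (chr11:117966079-117970047) was at 69.9 CPM (65.6 to 74.3) in wild-type lane 1, 83.3 CPM (76.3 to 90.9) in lane 2 and 182 CPM (173 to 192) in the knockout. The lanes did not overlap, and the knockout was above both by far more than they differed. The fold was 2.47 and the log2 ratio 1.29 (1.20 to 1.41), against 0.25 between lanes. A Socs3 UMI was in 6.17% (5.34 to 7.09) of thinned wild-type and 12.9% (11.6 to 14.3) of thinned knockout cells. In cells of 2000 to 4000 UMIs Socs3 was at 45.4 and 169 CPM, a log2 ratio of 1.87 (1.57 to 2.22). Bcl3 (chr7:19808462-19822770) was at 14.8, 19.3 and 17.8 CPM, with the knockout between the lanes. Its log2 ratio was 0.13 (-0.16 to 0.44) and -0.05 relative to the median of all genes, so its direction also turned with the scaling.

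**Figure D1:**
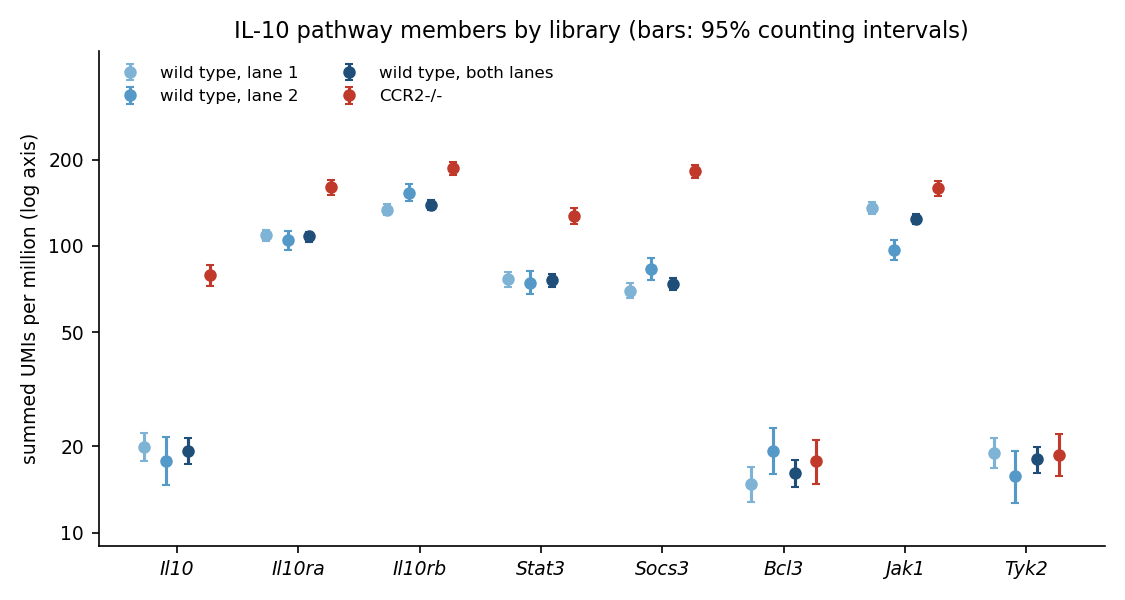
Level of each pathway member in CPM (log axis) in wild-type lane 1, lane 2, both lanes together and the CCR2-/- library, with 95% Poisson counting intervals as bars. The knockout sits above both lanes for Il10, Il10ra, Il10rb, Stat3, Socs3 and Jak1, most of all for Il10 (78.9 against 19.9 and 17.8 CPM), and among the lanes for Bcl3 and Tyk2.

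Taking all members, 2 of 8 (Il10 and Socs3) were at least 2-fold higher in the knockout and 0 were 2-fold lower. Among all genes tested, 9.04% were at least 2-fold higher and 3.12% at least 2-fold lower, 12.2% in all. With size factors that set the median gene to no difference, the same 2 members passed while 5.95% of all genes were higher and 6.36% lower. The members' median log2 ratio was 0.49, beside 0.18 for all genes. All 8 were above 0 on the CPM scale, as were 62.3% of all genes, and 6 of 8 were above the median of all genes. Il10 exceeded 98.6% of all genes by log2 ratio, Socs3 95%, Stat3 83.4% and Il10ra 75.3%. Between the 2 wild-type lanes the members' median log2 ratio was -0.05, and the SD over all genes was 0.35, against 0.69 between the libraries.

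**Figure D2:**
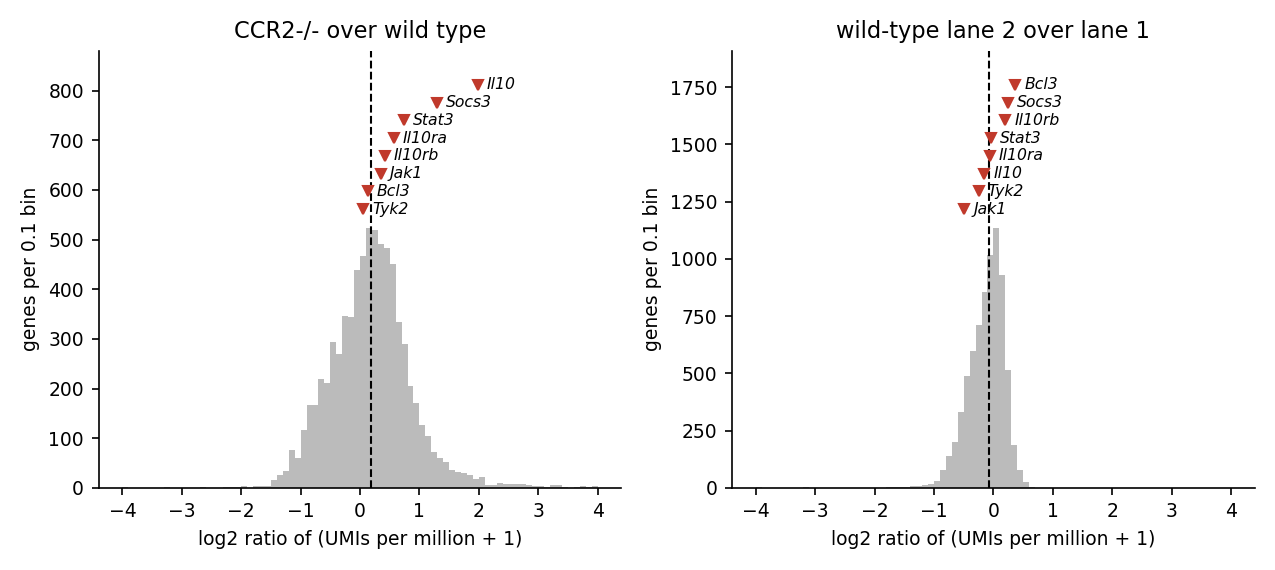
Histograms of log2 ratios of (CPM + 1) over 7401 genes, for CCR2-/- over wild type (left) and wild-type lane 2 over lane 1 (right), with the 8 members as triangles and the median of all genes as a dashed line. Il10 (1.98) and Socs3 (1.29) lie in the right tail on the left, while on the right the members spread from -0.49 (Jak1) to 0.37 (Bcl3).

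Other genes of the pathway were read from lists. Among the other ligands of the IL-10 family, 0 of 6 in the tables reached 10 CPM. Il22 was detected, at 4.59 CPM in the wild type and 5.09 CPM in the knockout, with a log2 ratio of 1.98 for lane 2 over lane 1. It is the first leading gene of the T cell or ILC-like cluster described below. Il19, Il20, Il24, Ifnl2 and Ifnl3 were at 0 in both libraries, where 3 UMIs would be 0.145 CPM in the wild type and 0.413 CPM in the knockout. Of the other class II cytokine receptor chains, the family of Il10ra and Il10rb, 4 of 9 reached 10 CPM. Of these, 0 differed by 2-fold, beside 12.2% of all genes, and the median log2 ratio was 0.13. Il20ra, Il22ra1 and Ifnlr1, partners of Il10rb or its relatives in epithelial receptors, were at 0 in both libraries. Among other receptor chains that signal through STAT3, 1 of 8 was at least 2-fold higher and 0 at least 2-fold lower, with a median of 0.73. Among all genes 9.04% were higher and 3.12% lower by that much, so 1 of 8 lies near the background. That gene was Il21r, the IL-21 receptor, at 8.78 and 11.8 CPM in the lanes and 28.9 CPM in the knockout (log2 ratio 1.49). Neither the other JAK and STAT genes (6 read, median 0.13) nor the JAK-STAT inhibitors other than Socs3 (12 read, median 0.36) had a gene past 2-fold. Of all genes, 12.2% were past it in either direction.

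Genes that IL-10 is known to raise in macrophages were mixed: 6 of 15 were at least 2-fold higher and 1 was at least 2-fold lower, beside 9.04% and 3.12% of all genes, with a median log2 ratio of 0.91, and Socs3 and Bcl3 are themselves on that list. The highest was Dusp1, a phosphatase that switches off MAP kinases, at 426 and 2829 CPM (log2 ratio 2.73). Cd163, the haemoglobin scavenger receptor, was at 34.8 and 149 CPM (2.06). Zfp36, the tristetraprolin gene, was at 736 and 2239 CPM (1.60). Il1r2, the decoy receptor for IL-1, was at 71.6 and 178 CPM (1.30). Tnip3, an A20-binding inhibitor of NF-κB, was the 1 gene past 2-fold in the other direction, at 15.9 and 7.16 CPM (-1.05), and is also among the leading genes of the mixed macrophage and monocyte cluster described below. Fcgr1, with the values given above, was lower too and lay just short of that threshold on the scale of CPM plus 1. Dusp1 and Zfp36 are also immediate-early genes by their textbook behaviour.

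Of the genes that IL-10 is known to hold down, 14 were read. Of these, 9 were at least 2-fold higher and 0 at least 2-fold lower, beside 9.04% and 3.12% of all genes. The median log2 ratio of the 14 was 1.21, beside 0.18 for all genes. Of the other 5, Il1b (0.89), Cd40 (0.70) and Cxcl10 (0.68) were higher by log2 ratio. Cxcl9 was at 302 and 273 CPM (-0.15) and Ccl5 at 59.5 and 51.6 CPM (-0.20). The 9 included the neutrophil chemokine Cxcl1, at 9.38 and 72 CPM (2.81), and the related Cxcl2, at 350.2 and 1561 CPM (2.15). The chemokine Ccl4 was at 769.8 and 4678 CPM (2.60), and Ccl2, the main ligand of the deleted receptor, at 157 and 696 CPM (2.14). Il12a, a chain of IL-12, was at 0 in both libraries. Il12b, the other chain and under 10 CPM, was at 5.13 CPM in the wild type and 0.963 CPM in the knockout (log2 ratio -1.64). Il1b, Cd40, Cxcl10, Cxcl9, Ccl5, Il12b, Fcgr1 and Il22 were named after their values were seen. The immediate-early genes had a median log2 ratio of 1.83 and were led by Egr1 (215 and 1772 CPM, log2 ratio 3.03), Ier3 (113 and 683 CPM, 2.58), Klf2 (237 and 992 CPM, 2.06) and Junb (1174 and 4831 CPM, 2.04).

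Of 18 regulators of Il10 itself, 8 were at least 2-fold higher and 0 at least 2-fold lower, beside 9.04% and 3.12% of all genes. The median log2 ratio of the 18 was 0.84, beside 0.18 for all genes. Crem, a cAMP-responsive modulator, was at 15.1 and 50.5 CPM (1.68). Bhlhe40, known as a repressor of Il10, was at 36.1 and 116 CPM (1.66). Prdm1, which encodes BLIMP-1, was at 136 and 390.1 CPM (1.52). Zfp36, whose product destabilises mRNAs with the heptamer shown for Il10, was higher as given above, alongside a higher Il10 level.

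Which cells held the Il10 UMIs was read in 2 ways, by cluster and by markers in the same cell. Cells were clustered without the 8 members and named from marker lists, and macrophage-like clusters held 298 of 399 wild-type Il10 UMIs (74.7%) and 544 of 573 knockout ones (94.9%). These clusters also held 2056 of the 3016 wild-type and 2411 of the 2612 knockout cells, so most Il10 UMIs would fall there by cell number alone. Their Il10 level was 24.2 CPM (21.5 to 27.1) in the wild type and 83.2 CPM (76.3 to 90.5) in the knockout. Clusters 3, 4, 5 and 6 held most wild-type cells of that class, and clusters 0, 1 and 7 most knockout ones. The mixed macrophage and monocyte cluster, with 790 wild-type and 29 knockout cells, held 82 wild-type Il10 UMIs (20.6%) at a lower level of 11.9 CPM (9.47 to 14.8). It was led by Ccl17, Tnip3, Ass1, Ccl22 and Napsa. The monocyte part of its name rests on Ccr2 and Plac8 among its further leading genes. Outside it the log2 ratio of Il10 was 1.75 and that of Socs3 1.82.

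Lymphoid cells gave few Il10 UMIs. The T cell or ILC-like cluster held 27 knockout cells with 10 Il10 UMIs, 1.75% of the library's Il10 and 158 CPM (75.7 to 290.2), and 11 wild-type cells with 0, which allows up to 71.6 CPM by the Poisson bound. That interval includes the 83.2 CPM of the knockout macrophage-like cells, and 4 cells carried all 10 UMIs. As a measure of free RNA, the plasma cell-like cluster held 0 thinned Il10-positive cells of 36, where 3 cells would be 8.33%, at a median of 7205 UMIs. By CPM it stood at 12.1 (2.5 to 35.4) in the wild type, an interval that includes the wild-type level over all cells, and at 0 with a bound of 55 CPM in the 13 knockout cells. Other knockout cells that were not named macrophage-like held Il10 too, at 40 CPM (14.7 to 87.1) in the mixed fibroblast and endothelial cluster and 58.7 CPM (23.6 to 121) in the defensin-led one. Both intervals include the 78.9 CPM of all knockout cells, so free RNA was not separated from cellular Il10 at this depth in either library.

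In thinned cells, macrophage markers were in like shares of Il10-positive and Il10-negative cells. At least 1 of the 8 macrophage markers was in 73 of 73 wild-type and 164 of 165 knockout Il10-positive cells. Cells with at least 3 of them and no T, regulatory T, B or mast cell marker made up 86.3% (76.2 to 93.2) of wild-type Il10-positive and 87.8% of Il10-negative cells. In the knockout they made up 83.6% (77.1 to 88.9) and 83.9%. The complement gene C1qc was in 94.5% of wild-type and 95.2% of knockout Il10-positive cells. A T, regulatory T, B or mast cell marker was in 4.11% of wild-type Il10-positive cells against 5.68% of negative ones, and in 7.88% against 7.86% in the knockout. Cd3e, a chain of the T cell receptor complex, was in 0 of 73 and 0 of 165 Il10-positive cells, where 3 cells would be 4.11% and 1.82%. It was also in 0 of 2942 wild-type Il10-negative cells. At 0.29 CPM in the wild type and 1.38 CPM in the knockout, Cd3e was too low to tell the source of Il10. A regulatory T cell marker was in 6.06% (2.94 to 10.9) of knockout Il10-positive and 2.35% (1.77 to 3.07) of negative cells, and in 2.74% (0.334 to 9.55) and 1.46% (1.06 to 1.96) in the wild type. A T cell or ILC marker was in 1.82% and 1.16% of knockout cells, in that order, with overlapping intervals. At least 2 plasma cell markers were in 2.74% and 0.918% of wild-type cells and 0% and 1.73% of knockout cells. The regulatory T cell markers summed to 12.4 CPM in the wild type and 28.6 CPM in the knockout. Foxp3, their defining gene, was in 1 of the 165 knockout Il10-positive cells, and stood at only 0.0484 CPM in the wild type and 0.688 CPM in the knockout. Mast cell genes Cpa3, Mcpt1, Mcpt2, Tpsb2 and Ms4a2 were at 0 in both libraries.

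**Figure D3:**
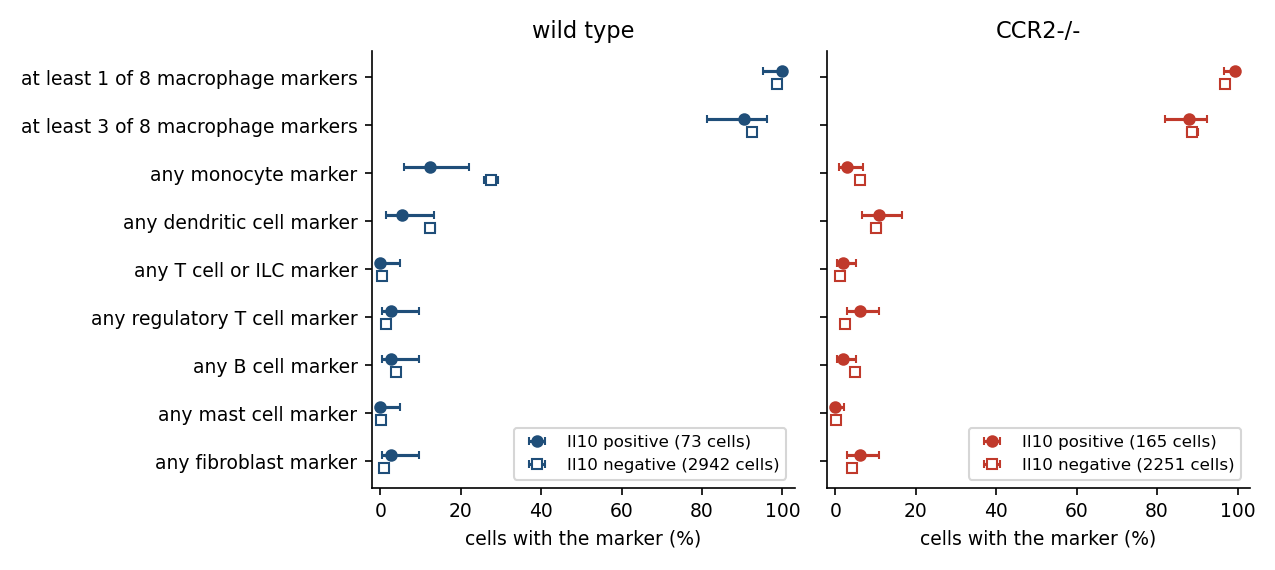
Share of thinned cells with each marker set, for Il10-positive cells (filled circles) and Il10-negative cells (open squares) of the wild type (left) and CCR2-/- (right), with 95% Clopper-Pearson intervals as bars. Positive and negative cells overlap for macrophage markers, and in the wild type a monocyte marker was in 12.3% of positive and 27.5% of negative cells.

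Within the wild-type library, the shares of cells with Il10 and with Socs3 lay in opposite directions by monocyte genes; cells of 1 library are no replicates, so these are descriptions. A monocyte marker was in 12.3% (5.8 to 22.1) of Il10-positive and 27.5% (25.9 to 29.2) of Il10-negative cells. Among cells with a Ccr2 UMI, 1.27% (0.551 to 2.49) held Il10, against 2.72% (2.11 to 3.46) without one. Socs3 went the other way, in 8.9% (6.8 to 11.4) of cells with Ccr2 and 5.45% (4.57 to 6.44) without. Among wild-type cells with Thbs1, a leading gene of cluster 0, 5.21% (3.01 to 8.33) held Il10, against 2.1% (1.6 to 2.72) without it. That difference rests on lane 2 (11.1% against 1.94%), since lane 1 had 3.1% (1.25 to 6.28) against 2.18%. In the knockout, Il10 was in 6.33% (4.52 to 8.59) of cells with Thbs1 and 6.99% (5.86 to 8.26) without it. In the knockout, cells with Cd163 held Socs3 in 19.8% (15.4 to 24.8) of cases and Il10 in 10.4% (7.18 to 14.4), against 11.9% (10.5 to 13.4) and 6.33% (5.33 to 7.45) without. The wild type showed no such difference. There Socs3 was in 6.31% (2.57 to 12.6) of the 111 cells with Cd163 and 6.16% (5.32 to 7.1) without. Il10 was in 2.7% (0.561 to 7.7) and 2.41% (1.88 to 3.04) of them. Knockout cells with Thbs1 held Socs3 in 7% (5.09 to 9.34) of cases, against 14.8% (13.2 to 16.5) without it.

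Levels of ligand and target were read cluster by cluster, and were high together in 1 cluster and apart in others. Cluster 1 (932 knockout and 4 wild-type cells, led by Cd209f, Fcna, Bmp2, Gm29562 and Ier3) had the highest Il10 level of the macrophage-like clusters, 129.6 CPM (115 to 145), with Socs3 at 248 CPM (228 to 269). Cluster 7 (220 knockout and 9 wild-type cells, led by Kcna1, Scn7a, Mt2, Sostdc1 and Fxyd1) had Socs3 at 443 CPM (397 to 493) with Il10 at 23.4 CPM (13.9 to 37). Cluster 0 (1083 knockout and 108 wild-type cells, led by 2900052N01Rik, Rep15, Plaur, Fndc5 and Vwa1) had Il10 at 69.8 CPM (61.3 to 79.1) and Socs3 at 57.8 CPM (50.1 to 66.3). Among the mainly wild-type macrophage-like clusters 3 to 6, Il10 ranged from 18.3 CPM in cluster 5 to 36.2 CPM in cluster 6, and Socs3 from 37.7 CPM in cluster 3 to 56.9 CPM in cluster 4. The mixed macrophage and monocyte cluster had Socs3 at 126 CPM (117 to 134) with Il10 at 12.2 CPM (9.79 to 15.1). Socs3 also reached 489 CPM (389 to 607) in the 42 cells of the mixed fibroblast and endothelial cluster, where Il10ra had 1 UMI. A cluster drawn almost wholly from 1 library may stand for that library and not for a cell type.

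**Figure D4:**
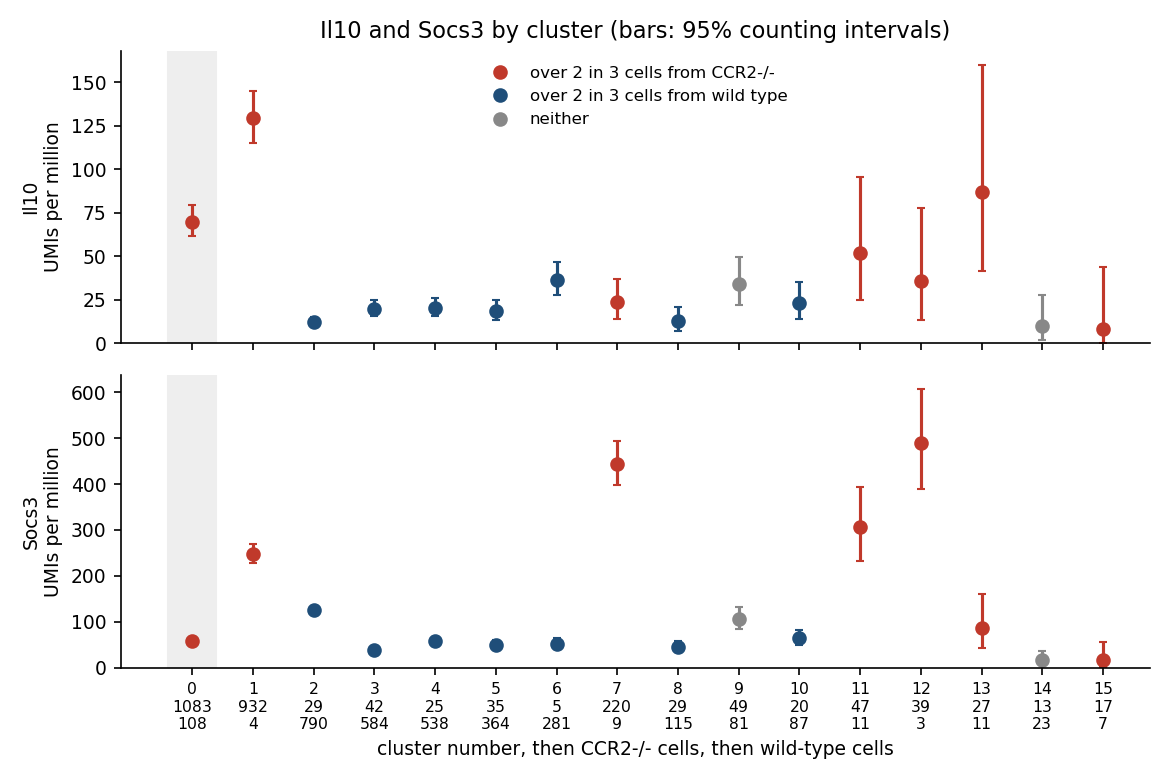
Il10 (top) and Socs3 (bottom) in CPM for each of 16 clusters, with 95% Poisson intervals as bars and the number of CCR2-/- and wild-type cells under each cluster number; colour marks the library that gave most of the cells and shading marks cluster 0. Il10 peaks in clusters 0, 1 and 13, and Socs3 in clusters 1, 7, 11 and 12.

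Cluster 0 was the 1 macrophage-like cluster with at least 50 cells from each library, and within it each member's interval for the genotype ratio included 0. Il10 was at 75.2 CPM in its wild-type and 68.9 CPM in its knockout cells, a log2 ratio of -0.12 (-0.65 to 0.44), which turns the direction seen over all cells. Socs3 was at 47.2 and 59.4 CPM, a log2 ratio of 0.32 (-0.31 to 1.04). The members' median there was 0.00, with 0 of 8 past 2-fold and 5.13% of 7192 genes at least 2-fold higher. The wild-type side rests on 35 Il10 UMIs, and these cells were grouped by genes that include the immediate-early ones. Cluster 9, which is led by interferon-induced genes such as Ifit1 and falls just under that number with 81 wild-type and 49 knockout cells, went the other way. Its Il10 was at 15.1 CPM in the wild type (9 UMIs) and 109 CPM in the knockout (16 UMIs), and its Socs3 at 82.4 and 197 CPM.

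Il10 was next read by the level of immediate-early genes in the same cell. Cells were divided into 3 parts by their thinned immediate-early UMIs, 0 to 7, 8 to 19 and 20 to 75. The wild type had 1880, 1008 and 127 cells in them, and the knockout 134, 659 and 1623. In the wild type Il10 was in 1.76% (1.21 to 2.46), 2.88% (1.94 to 4.11) and 8.66% (4.4 to 15) of cells, in that order. In the knockout it was in 0 of 134 cells (interval 0 to 2.72%), 4.25% (2.84 to 6.08) and 8.44% (7.13 to 9.9). In both libraries the share was higher in the parts with more immediate-early UMIs, and in each part the intervals of the 2 genotypes overlapped. By CPM at full depth, the log2 ratio of Il10 was 1.15 (0.34 to 1.96), 1.07 (0.74 to 1.46) and 0.37 (-0.06 to 0.84). In the highest part Il10 was at 72.5 CPM in the wild type and 93.9 CPM in the knockout, short of 2-fold. Thinning these cells takes immediate-early and Il10 UMIs from the same total, and the part that immediate-early expression plays in the Il10 difference was not tested.

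Socs3 and Stat3 showed the same order. Socs3 was in 5.48%, 6.65% and 12.6% of wild-type and 7.46%, 8.8% and 15% of knockout cells, from the lowest to the highest part. Its log2 ratio by CPM was 0.37 (-0.17 to 0.88), 0.31 (0.11 to 0.52) and 0.59 (0.29 to 0.91), each below the 1.29 over all cells. Stat3 was in 6.33%, 7.44% and 12.6% of wild-type and 7.46%, 11.2% and 13.7% of knockout cells. The number of members past 2-fold was 1, 1 and 0 in the lowest, middle and highest part, the 1 being Il10 each time. Of all genes, 10.1%, 6.96% and 9.49% were at least 2-fold higher in those parts, so the members' counts are near that background.

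**Figure D5:**
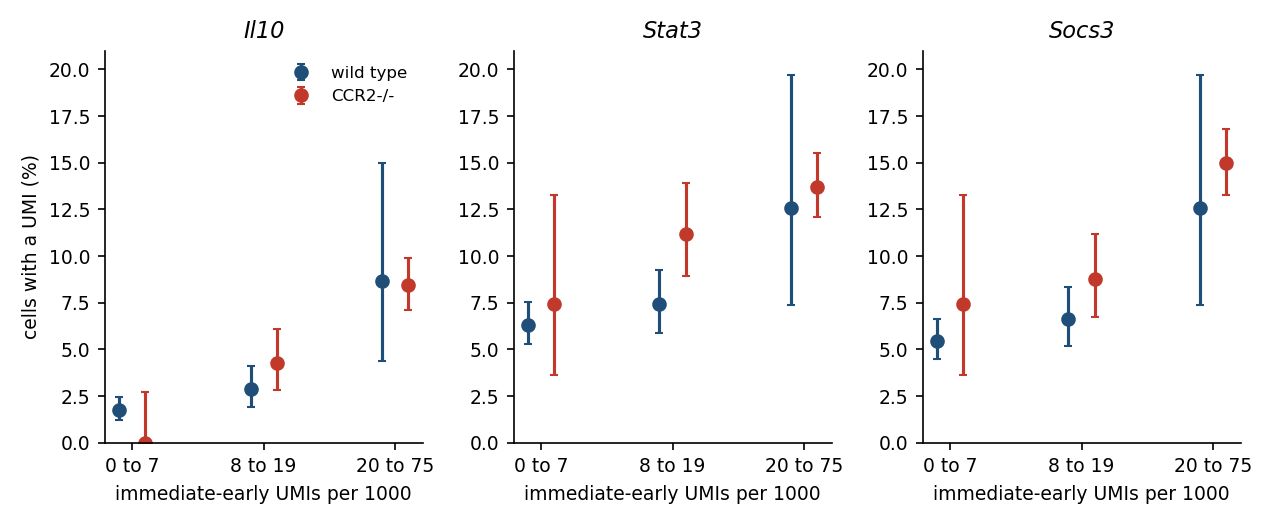
Share of thinned cells with a UMI of Il10, Stat3 or Socs3 in cells with 0 to 7, 8 to 19 or 20 to 75 immediate-early UMIs, for wild type (blue) and CCR2-/- (red), with 95% Clopper-Pearson intervals as bars. The highest part holds 127 wild-type and 1623 knockout cells, with Il10 in 8.66% and 8.44% of them.

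Detection of 2 members in the same cell was set against the product of their shares, and the ratio ranged from 0 to 3.12 over the 28 pairs and both libraries. Il10 and Socs3 were seen in the same cell 3 times in the wild type, 0.666 times the product, and 17 times in the knockout, 0.8 times. Stat3 and Socs3 were together 21 and 46 times, 1.62 and 1.16 times the product. Both receptor chains were in 41 wild-type and 61 knockout cells, 0.855 and 0.931 times the product. Il10 and Bcl3 were together in 4 wild-type cells and 1 knockout cell, 3.12 and 0.357 times the product. These counts are small and are given as a description.

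The genes whose pattern was most like Il10 were ranked over 2160 genes by the log2 ratio of mean thinned UMIs in Il10-positive over Il10-negative macrophage-marked cells (63 and 2583 cells in the wild type, 138 and 1889 in the knockout), taking the smaller of the 2 libraries. The first 10 were Tex261, Igfbp4, Rassf2, Sdf2, Ccnd1, Cp, Sowahc, Stx12, Phf3 and Erh. The smaller log2 ratio ran from 1.01 for Tex261 to 0.66 for Erh, and Phf3 was at -0.26 in wild-type lane 1. Of the members, Stat3 ranked 208 (0.37 in the wild type and 0.24 in the knockout) and Socs3 ranked 1416 (-0.06 and -0.35). With so few Il10-positive cells this order is a description of these libraries.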

How the data were processed

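The deposited tables hold raw UMI counts per gene and cell barcode from the 10x 3′ v2 chemistry, made with Cell Ranger 3.0.1 on mm10, per the submitters' processing notes; the annotation and cell calling are not given in the sources used here. Depth after filtering was 20678108 UMIs in the wild type and 7265386 in the knockout, from 3054 and 2774 deposited cells. Wild-type lane 1 shared 5 barcodes with lane 2 and 6 with the knockout, and lane 2 shared 0 with the knockout; these cells were kept. Summed counts were scaled to CPM, and ratios used a pseudocount of 1 CPM. Cells were clustered with scanpy 1.11.5 (2000 variable genes without the 8 members, 30 components, 15 neighbours, Leiden resolution 0.8). Clusters were named from fixed markers; the rules that left 2 clusters unnamed and 3 mixed were set after the clusters were seen. Doublets were kept, and the top 0.8% of Scrublet scores per 1000 cells was removed as an alternative (43 wild-type and 58 knockout cells). The sums and thinning were tested on simulated data.

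The members and lists were chosen with earlier results of these data known. Genes named from a pathway list are the 4 highest and 4 lowest log2 ratios past 2-fold with a mean of at least 10 CPM, plus genes at 0; any other was chosen after its values were seen. Marker lists not described above summed in the wild type and knockout to 132 and 111 CPM (dendritic cell), 7.16 and 16.4 (T cell or ILC), 55 and 64.4 (B cell), 1719 and 1847 (plasma cell), 1.5 and 2.2 (mast cell), 34.7 and 45.3 (neutrophil), 4.01 and 9.08 (eosinophil) and 125 and 100.5 (epithelial). Gene positions are from GENCODE M21 on GRCm38.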

Additional observations from a re-analysis of the deposited data

How the results depend on the processing

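No paired analysis was possible because each genotype had 1 library. Il10 stayed higher in the knockout and past 2-fold under all 10 alternatives listed at the start, with log2 ratios from 1.17 to 2.27. Values outside the counting interval were 1.60 with a pseudocount of 10 CPM, 1.79 with median-of-ratios size factors, 2.27 with at least 500 genes and at most 5% mitochondrial UMIs, 1.17 in cells of 2000 to 4000 UMIs and 1.75 outside the monocyte-marker cluster. The members' median moved to 0.30 with size factors, 0.22 in cells of 2000 to 4000 UMIs and 0.66 against wild-type lane 2. Alternatives chosen after seeing the data moved more: in cluster 0 the Il10 log2 ratio was -0.12, the median 0.00 and the number past 2-fold 0. In the lowest, middle and highest immediate-early part, the Il10 log2 ratio was 1.15, 1.07 and 0.37, and 1, 1 and 0 members were past 2-fold, beside 10.1%, 6.96% and 9.49% of all genes higher. The median was 0.29 and 0.24 in the lowest and middle part. The Il10 share of knockout cells was 3.94%, 9.22% and 12.3% when thinned to 500 UMIs, thinned to 2000 UMIs and not thinned, and 1.23%, 3.56% and 7.99% in the wild type, as thinning by its construction sets how many UMIs are seen. With at least 500 genes and at most 5% mitochondrial UMIs the wild-type share was 1.67%. Il10-positive cells marked as macrophages made up 23.6% (knockout) and 30.1% (wild type) when at least 5 of 8 markers were asked for, and 62.2% in the wild type without thinning. The causes of the other movements were not tested. Bcl3 was above 0 in 9 of 11 settings (the one reported and 10 alternatives) and Tyk2 in 7 of 11; the other 6 members were above 0 in all 11.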
